A study of Mus musculus with 4 samples.

Results

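The comparison set the array of mice lacking both Fancd2 and Foxo3a (DKO) against the array of mice lacking Fancd2 alone (Fancd2KO), and so described Foxo3a loss in cells that had already lost Fancd2. It used 2 of the 4 arrays of the series, 1 for each genotype. The other arrays, from mice lacking Foxo3a alone (Foxo3aKO) and from wild-type mice (WT), give the same loss on an intact Fancd2 background. All mice were 2 months old, and all RNA came from bone marrow cells sorted by the gate Lin-, c-Kit+, Sca-1+, CD34-, which takes in blood stem cells. In the labels they go under the name SLAM, although the gate given there names no antigen of the SLAM family. Both mutant genotypes of the main comparison were labelled Fancd2 knockout, so the loss of Fancd2 is common to both. Not given in the sources used here are the alleles, any Cre driver, how many mice an array stands for, and their sex. The Affymetrix Mouse Gene 2.0 ST array was read as log2 expression values, called levels below. Of 22180 genes, each represented by its brightest probe set, 12041 reached 5.51 log2, the median of all gene values, on at least 1 of the arrays. These are called measurable, and 5.51 log2 is called the filter level. With 1 array per genotype there is no replicate, so no difference has a test, an error or a p-value.

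Foxo3a is a forkhead transcription factor that is held in the cytoplasm when insulin and growth factor signalling through PI3K and AKT is active, and that enters the nucleus under stress or growth factor withdrawal. It is known for switching on genes of cell cycle arrest, antioxidant defence and autophagy, and in blood it is known for keeping stem cells quiescent. Fancd2 is monoubiquitinated at DNA crosslinks, where it directs their repair. Stem cells with Fanconi anaemia mutations are known to be sensitive to DNA damage and to inflammatory signals.

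The arrays of both genotypes were alike in overall signal. Their medians over 41345 probe sets were 5.31 log2 for DKO and 5.27 log2 for Fancd2KO, and their Pearson correlation was 0.965. Genes with 2 measurable probe sets gave the disagreement between probe sets, which leaves out any error shared by a whole array. In 544 such genes, the DKO minus Fancd2KO differences of both probe sets disagreed with an SD of 0.51 log2, and 95% disagreed by less than 0.97, which is close to the 2-fold threshold of 1. The level of Foxo3 (probe set 17240529) was 6.51 in DKO and 6.72 in Fancd2KO, a difference of -0.20 that is smaller than this disagreement. It was 6.64 in Foxo3aKO and 6.62 in WT. The labels name no deleted exon and the exons under the probe set are not known, so the Foxo3 signal does not check the labels, and every direction given for Foxo3a loss rests on them. The level of Fancd2 (probe set 17461739) was 5.84 in DKO and 6.08 in Fancd2KO, against 6.67 in Foxo3aKO and 6.56 in WT. Genes next to Foxo3 on its chromosome showed no block of differences: of the 20 nearest genes on each side, 28 of 40 were measurable, with a median difference of 0.03, and 1 of them, an unnamed RIKEN clone, was 2-fold apart (1.01). Transcripts of the sort antigens were close on both arrays for Kit (10.43 in DKO, 10.41 in Fancd2KO) and Cd34 (10.36 in DKO, 10.28 in Fancd2KO). Procr, which encodes a receptor of stem cells, stood at 8.05 in DKO and 8.03 in Fancd2KO. Cd34 transcript was thus bright although the gate was CD34-negative. Levels of Xist, made by female cells, and of the Y-linked Eif2s3y were above the filter level on all arrays, at 10.84 and 8.50 in DKO and at 10.18 and 8.54 in Fancd2KO. Xist differed by 0.66, while the Y-linked Kdm5d differed by -0.52, at 6.84 in DKO and 7.36 in Fancd2KO. Whether the mix of sexes differed between the arrays was not tested.

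In the DKO array, 181 of 12041 measurable genes exceeded the Fancd2KO array by 2-fold or more (1.5%), and 182 were below it by as much (1.51%), which together make 3.01%. The median difference over these genes was -0.02 log2, and 47.4% of them were above 0, the share to set beside counts of higher and lower list members. The higher side reached further: 41 genes were at least 4-fold higher and 22 at least 4-fold lower. Of all genes 2-fold apart, 279 carry names of characterised genes and 84 are predicted genes, clones, small RNAs or receptor segments. The leading higher genes were those of patrolling monocytes, and the leading lower genes were stimulus-induced transcription factors, the cell cycle inhibitor gene Cdkn1a and transcripts best known from neurons.

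**Figure D1:**
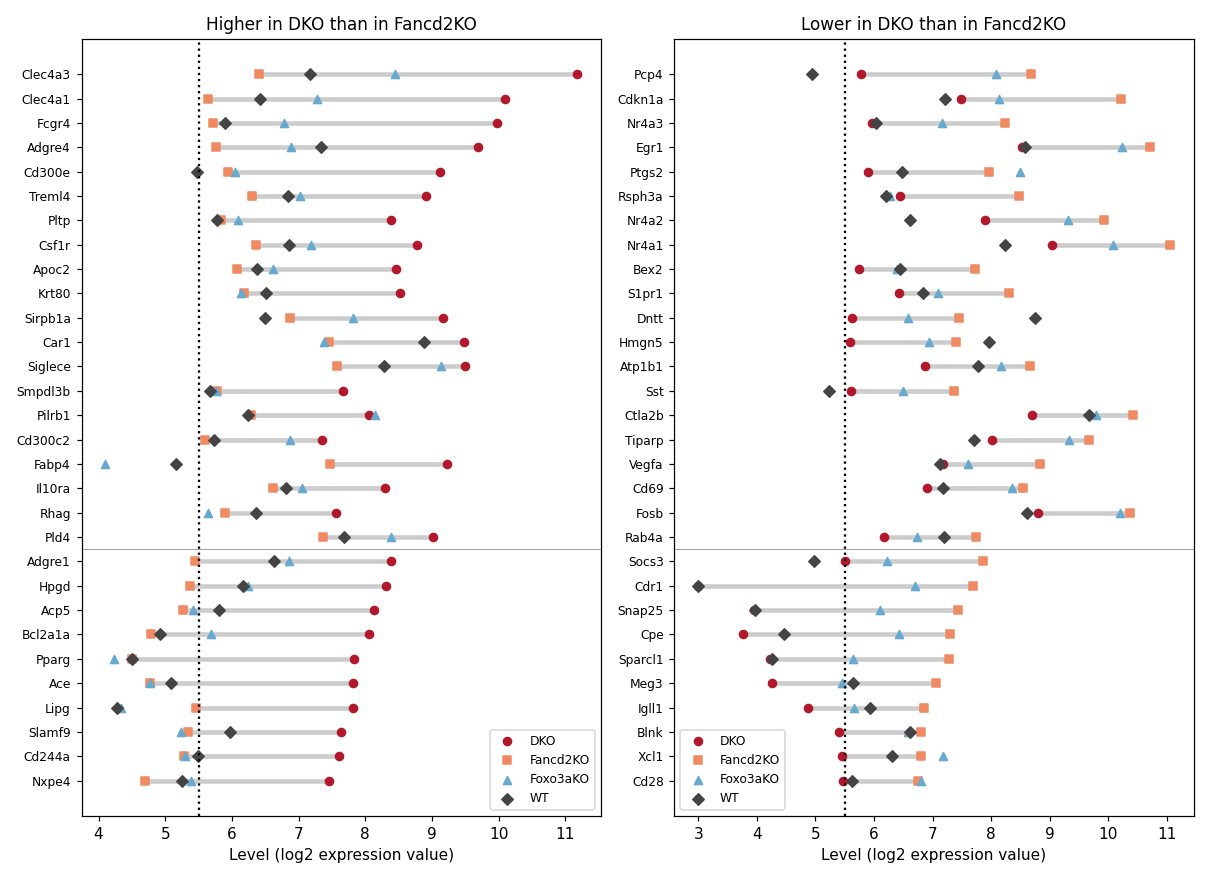
Levels (log2 expression value, horizontal axis) on the 4 arrays of the 30 genes furthest apart in each direction, with a grey bar joining DKO and Fancd2KO. Genes above the thin line were at or above the filter level of 5.51 (dotted) on both arrays, and genes below it on 1 of both. Clec4a3 heads the higher genes at 11.17 in DKO and 6.40 in Fancd2KO, and Pcp4 heads the lower ones at 5.78 in DKO and 8.67 in Fancd2KO.

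Monocytes arise from marrow progenitors that carry the Csf1r receptor and exist as classical cells, which enter inflamed tissue, and non-classical cells, which patrol vessels and depend in mice on Nr4a1. Non-classical monocyte genes were the list with the largest positive median in this comparison. This list, like the others, was chosen with earlier results of these data known. Its rank and shares are therefore descriptions and no independent evidence for a cell type. All 23 measured genes of the list were measurable; 19 were higher in DKO than in Fancd2KO, 14 of them at least 2-fold, and the median difference was 1.61. The background shares without the filter, which marker lists did not use, were 1.04% of 22180 genes at least 2-fold higher and 1.03% at least 2-fold lower, or 2.06% in all, and the median difference was 0.02. Of these genes 52.3% were above 0. The median level of the list was 8.58 in DKO, against 6.40 in Fancd2KO, 7.02 in Foxo3aKO and 6.84 in WT. The DKO array was thus the high one of all 4, and the Fancd2KO array the lowest. In bulk samples, more cells of a type and more RNA per cell cannot be told apart, and the part of monocytes in the higher genes was not tested. The gate is meant to remove mature monocytes, which carry lineage antigens, but how far it did so was not tested.

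Clec4a3, which encodes a C-type lectin receptor of myeloid cells, had a level of 11.17 in DKO and 6.40 in Fancd2KO, a 27.4-fold difference, with 8.44 in Foxo3aKO and 7.17 in WT. Its neighbour in the same receptor family, Clec4a1, stood at 10.09 in DKO and 5.65 in Fancd2KO, with 7.27 in Foxo3aKO and 6.42 in WT. The activating Fc receptor gene Fcgr4 stood at 9.97 in DKO and 5.71 in Fancd2KO, a 19.2-fold difference, with 6.78 in Foxo3aKO and 5.90 in WT. For all 3 genes the DKO level was the highest and Foxo3aKO, the next array, lay well below it. Adgre4, an adhesion receptor gene of the macrophage lineage, stood at 9.69 in DKO and 5.76 in Fancd2KO, with 6.89 in Foxo3aKO and 7.33 in WT. Cd300e, an activating receptor gene of monocytes, stood at 9.13 in DKO and 5.95 in Fancd2KO, with 6.04 in Foxo3aKO and 5.48 in WT. Treml4, a receptor gene of patrolling monocytes, was higher by 2.61 and the fractalkine receptor gene Cx3cr1, named after its value was seen, by 1.62. Members of the Clec4a and Sirpb1 families include close copies, and probes may not tell these apart, which makes each value uncertain. Exceptions on the list were Nr4a1 (-2.02) and the Notch target Hes1 (-1.13), both at least 2-fold lower, while Cebpb (-0.16) and Cd274, which encodes PD-L1, lay near 0.

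**Figure D2:**
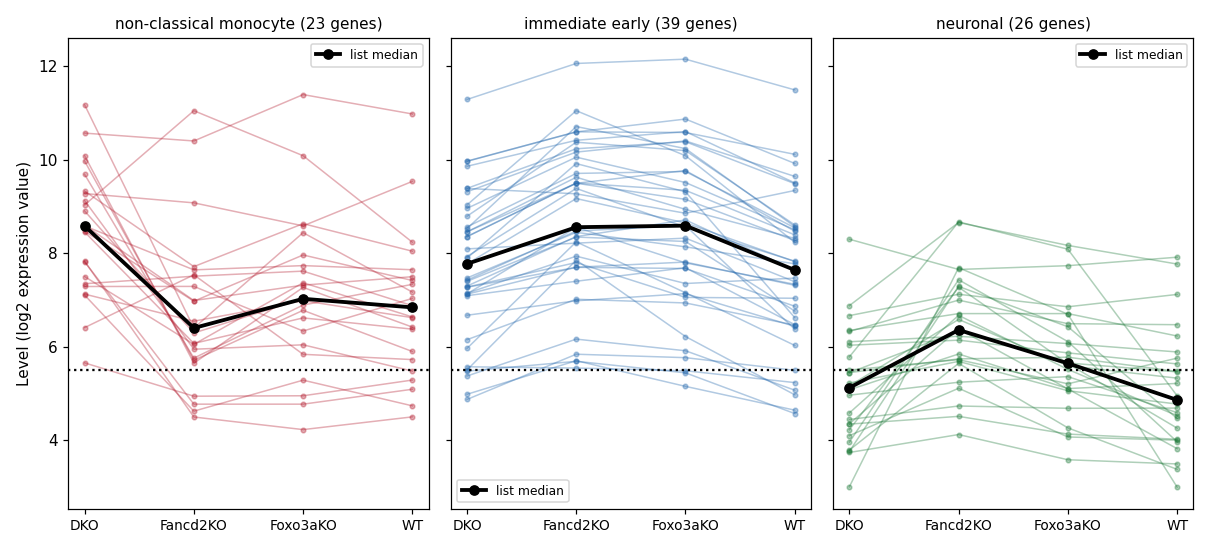
Levels (log2 expression value, vertical axis) on each array for the members of 3 lists, 1 thin line per gene, with the list median in black and the filter level dotted. The non-classical monocyte median is 8.58 in DKO and 6.40 in Fancd2KO, the immediate early median 7.77 in DKO and 8.56 in Fancd2KO, and the neuronal median 5.12 in DKO and 6.36 in Fancd2KO.

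The broader monocyte and macrophage list was also higher, with 18 of 25 measured genes above Fancd2KO. At least 2-fold higher were 8 (32%, against 1.04% of all 22180 genes). The median was 0.46, or 0.24 with dim values raised to the filter level. Csf1r, the receptor gene for macrophage colony-stimulating factor, had a level of 8.78 in DKO and 6.36 in Fancd2KO, with 7.18 in Foxo3aKO and 6.85 in WT. Adgre1, which encodes a surface antigen of macrophages, stood at 8.39 in DKO and 5.45 in Fancd2KO, with 6.86 in Foxo3aKO and 6.62 in WT. Again DKO was the highest array and Fancd2KO the lowest. Ms4a6d (1.95), the high-affinity Fc receptor gene Fcgr1 (1.71, or 1.07 with dim values raised), Ly86 (1.63), which encodes the partner MD-1 of an innate receptor, and the lysosomal protease gene Ctss (1.60) followed. Classical monocyte genes did not share this direction: 10 of 15 were lower and the median was -0.18. Sirpb1c (2.53, or 1.40 with dim values raised) and Ms4a4c (1.84) were at least 2-fold higher on that list, while the fibronectin gene Fn1 (-0.89), the lectin gene Clec4d (-0.86) and the clotting factor gene F13a1 (-0.73) had negative differences.

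Genes of Fc receptor and ITAM signalling, the activating pathway of myeloid receptors, followed the monocyte genes with which this list shares members. Of 38 measurable members 30 were higher, 17 of them at least 2-fold against a background of 1.5%, and 0 were 2-fold lower. The list median was 0.65. Fcrl5, an Fc receptor-like gene, stood at 7.45 in DKO and 4.08 in Fancd2KO, with 3.94 in Foxo3aKO and 4.30 in WT. Clec4b1 (3.41) had a level of only 6.28 in DKO and 2.86 in Fancd2KO, and differed by 0.77 with dim values raised to the filter level. The inhibitory receptor gene Siglece (1.93), Pilrb1 (1.77), the interleukin 10 receptor gene Il10ra (1.69), Cd300c2 (1.75) and the phospholipase family gene Pld4 (1.64) were among the 20 largest higher differences of genes at or above the filter level on both arrays. The Foxo3aKO array was close to DKO for Siglece, at 9.5 in DKO beside 9.13 in Foxo3aKO, and slightly above it for Pilrb1, at 8.05 in DKO beside 8.14 in Foxo3aKO. Acp5 (2.86), which encodes tartrate-resistant acid phosphatase of osteoclasts and macrophages, Hpgd (2.94), which breaks down prostaglandins, the survival gene Bcl2a1a (3.27), Slamf9 (2.29), Cd244a (2.32) and Nxpe4 (2.76) were measurable in DKO but under the filter level in Fancd2KO. Raised to that level they differed by 2.62, 2.80, 2.54, 2.13, 2.10 and 1.95.

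Lipid-handling genes split in a similar way. Of 23 measurable genes of lipid uptake and PPAR targets, 15 were higher, 4 of them at least 2-fold (17.4%, against 1.5% of all measurable genes), and the median was 0.13. Of the genes at least 2-fold higher, Pparg and Apoc2 are also on the non-classical monocyte list. Pparg, the nuclear receptor that drives lipid storage genes, stood at 7.83 in DKO and 4.50 in Fancd2KO, with 4.23 in Foxo3aKO and 4.50 in WT. The fatty acid carrier Fabp4, a known Pparg target, stood at 9.22 in DKO and 7.47 in Fancd2KO, with 4.10 in Foxo3aKO and 5.16 in WT. Fabp4 was thus high on both arrays labelled as lacking Fancd2. The lipase gene Lipg (2.36), the apolipoprotein gene Apoc2 (2.38) and Apoe (0.94) were on the same side, and Vldlr, a lipoprotein receptor gene, was at least 2-fold lower (-1.10). Outside the list, the phospholipid transfer gene Pltp (2.55), the sphingomyelinase-like gene Smpdl3b (1.89), the keratin gene Krt80 (2.33) and Ace (3.05), which encodes angiotensin-converting enzyme, were higher.

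Antigen presentation by MHC class II followed in part. Of 14 measurable genes 8 were higher. Ctss and H2-Eb1 (1.16) were at least 2-fold higher (14.3%, against 1.5% of all measurable genes), followed by H2-Aa (0.84) and H2-Ab1 (0.70). Ctss is also on the monocyte and macrophage list. Of integrin and adhesion genes 35 were measurable. The beta 2 integrin subunits Itgal (1.5) and Itgb2 (1.04) were at least 2-fold higher (5.71%, against 1.5%). Itgal is also on the non-classical monocyte list. Selp (-1.20), the P-selectin gene, Jam3 (-1.09) and the angiopoietin receptor gene Tek (-1.07) were at least 2-fold lower (8.57%, against 1.51%).

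Immediate early genes, which cells switch on within minutes of a stimulus without new protein synthesis, had the lowest median of all lists. This list too was chosen with earlier results of these data known, so its rank and share are descriptions. All 39 measured genes were measurable; 37 were lower in DKO than in Fancd2KO, 17 of them at least 2-fold against a background of 1.51%, and the median was -0.95. Only Myc (0.11) and Egr4 (0.03) had positive differences. The median level of the list was 7.77 in DKO and 8.56 in Fancd2KO, with 8.59 in Foxo3aKO and 7.64 in WT, so the DKO array lay near WT and both single knockouts lay above.

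The Nr4a genes encode orphan nuclear receptors that are induced by many stimuli. Nr4a1 had a level of 9.03 in DKO and 11.05 in Fancd2KO, with 10.09 in Foxo3aKO and 8.23 in WT. Nr4a2 stood at 7.89 in DKO and 9.92 in Fancd2KO, with 9.31 in Foxo3aKO and 6.62 in WT. For both genes DKO stood between WT and the single knockouts. Nr4a3 stood at 5.96 in DKO and 8.24 in Fancd2KO, with 7.15 in Foxo3aKO and 6.03 in WT. The growth response factor gene Egr1 stood at 8.53 in DKO and 10.71 in Fancd2KO, with 10.24 in Foxo3aKO and 8.57 in WT, so DKO and WT were level. Fosb, a subunit gene of the AP-1 factor, stood at 8.79 in DKO and 10.37 in Fancd2KO, with 10.20 in Foxo3aKO and 8.60 in WT. Socs3, which encodes an inhibitor of cytokine signalling, stood at 5.50 in DKO and 7.85 in Fancd2KO, and its difference of -2.35 was -1.36 with the mean of its probe sets. Of the AP-1 family, Fos (-1.14), Fosl2 (-1.40), Junb (-1.04) and Atf3 (-1.05), the first 3 named after their values were seen, were at least 2-fold lower too.

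**Figure D3:**
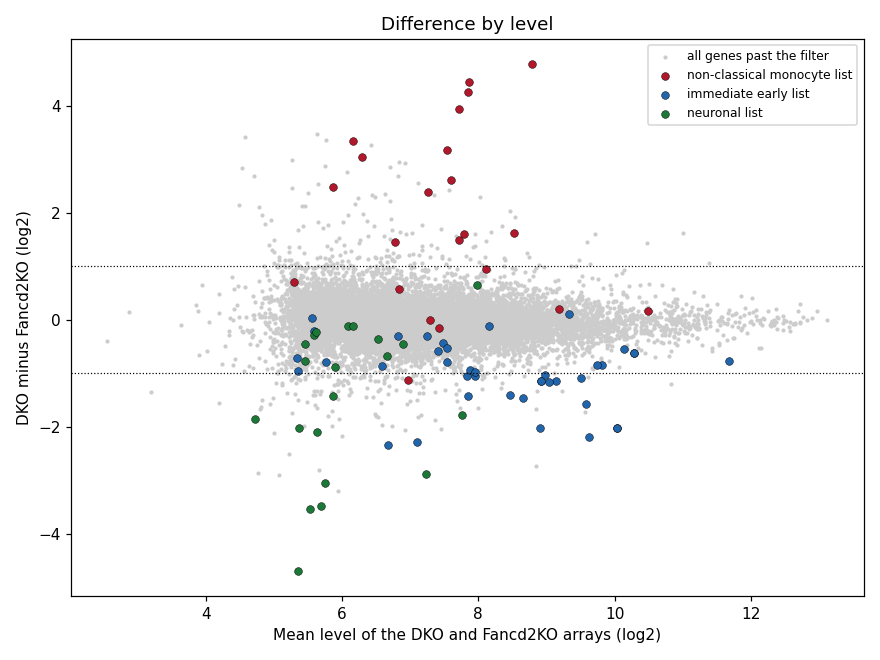
DKO minus Fancd2KO difference (log2, vertical axis) of 12041 measurable genes against the mean level of both arrays (log2, horizontal axis), with the 2-fold limits dotted. Red points are measurable non-classical monocyte genes, blue points immediate early genes and green points neuronal genes; 14 red points lie at or above the upper limit and 17 blue points at or below the lower one.

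Many immediate early genes are known to be switched on through the cyclic AMP response element. Its core, TGACGTC on either strand, was counted in the RefSeq promoters of assembly GRCm38.p6, from 250 bases before to 50 bases after the start. The core was present for 6 of the 32 immediate early genes with a promoter in the table (18.8%), against 3.60% of 27025 genes in the table and 6.05% of 9504 measurable genes. The 6 genes were Nr4a3, Egr2, Dusp1, Btg2, Maff and Ppp1r15a, and their differences ran from -2.28 for Nr4a3 to -0.56 for Btg2. Among genes at least 2-fold lower in DKO, 13 of 117 with a promoter held it (11.1%), and among those at least 2-fold higher, 4 of 128 (3.12%). The AP-1 element TGANTCA, whose letters cannot match the same bases as the core, was present for 1 of the 32 immediate early genes (3.12%), against 8.97% of all genes in the table and 6.33% of measurable genes, and for 16 of 128 genes at least 2-fold higher in DKO (12.5%). The promoters of Nr4a3, on chromosome 4, plus strand, chr4:48045055-48045354, and of the phosphatase gene Dusp1, on chromosome 17, minus strand, chr17:26508423-26508722, are printed 5′ to 3′ because they hold the core of the list that was lowest; capitals mark it.
Nr4a3: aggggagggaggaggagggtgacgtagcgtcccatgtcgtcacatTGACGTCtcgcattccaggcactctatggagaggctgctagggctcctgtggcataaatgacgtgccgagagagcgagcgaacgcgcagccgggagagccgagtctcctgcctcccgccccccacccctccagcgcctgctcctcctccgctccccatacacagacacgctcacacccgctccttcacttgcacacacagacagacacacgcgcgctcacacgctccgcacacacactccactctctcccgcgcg
Dusp1: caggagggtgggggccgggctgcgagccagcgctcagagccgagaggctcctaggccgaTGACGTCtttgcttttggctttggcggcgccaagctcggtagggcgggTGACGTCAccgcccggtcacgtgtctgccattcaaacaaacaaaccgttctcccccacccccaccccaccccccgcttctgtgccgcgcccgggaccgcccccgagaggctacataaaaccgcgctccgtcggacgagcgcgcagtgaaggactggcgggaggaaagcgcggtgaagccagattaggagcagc
In Dusp1 the core occurs at 3 places, of which 2 overlap on opposite strands. Dusp1 had a level of 9.97 in DKO and 10.60 in Fancd2KO, with 10.58 in Foxo3aKO and 10.12 in WT. A match of these letters is a description and does not show binding.

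Inflammatory genes of the TNF and NF-kB list were mixed. Of 37 measurable members 25 were lower, and the median was -0.23. At least 2-fold lower were 5 (13.5%, against 1.51% of all measurable genes), and 2 were at least 2-fold higher (5.41%, against 1.5%). Ptgs2, which encodes the inducible cyclooxygenase, had a level of 5.89 in DKO and 7.96 in Fancd2KO, with 8.49 in Foxo3aKO and 6.48 in WT. The interleukin 1 decoy receptor gene Il1r2 stood at 6.92 in DKO and 8.45 in Fancd2KO, with 9.72 in Foxo3aKO and 6.55 in WT. Both genes were high on the single-knockout arrays and lower in DKO and WT. Ier3 (-1.46) and the monocyte chemokine gene Ccl2 (-1.18) were at least 2-fold lower as well. The members at least 2-fold higher were Bcl2a1a (3.27) and Cd40 (1.12), which differed by 0.13 with dim values raised to the filter level. The aryl hydrocarbon response gene Tiparp (-1.66), the activation antigen gene Cd69 (-1.64), the chemokine gene Xcl1 (-1.35) and the costimulator gene Cd28 (-1.29) were also among the named lower genes. Type I interferon response genes had a median of 0.07, with 25 of 42 higher, and the GTPase gene Irgm2 (1.46) was the member 2-fold apart.

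The list of direct FOXO targets bears most closely on the factor that was lost. Of 37 measurable targets 28 were lower in DKO than in Fancd2KO, 5 of them at least 2-fold (13.5%, against 1.51% of all measurable genes), and Bcl6 was 2-fold higher. The list median was -0.32, against -0.02 for all measurable genes. The median was -0.28 without the members that are also on the immediate early list. Of the 5 members at least 2-fold lower, Klf6 and Klf2 are also on that list, and Cdkn1a is also on the p53 target list. Cdkn1a, the p21 gene, whose product halts cell division, had a level of 7.48 in DKO and 10.22 in Fancd2KO, a 6.66-fold difference, with 8.14 in Foxo3aKO and 7.21 in WT. S1pr1, the receptor gene for sphingosine 1-phosphate that guides cells out of tissues, stood at 6.43 in DKO and 8.30 in Fancd2KO, with 7.10 in Foxo3aKO and 6.83 in WT. The Fancd2KO array was the high one for both, and DKO lay near WT. The insulin receptor substrate gene Irs2 (-1.23), Klf6 (-1.14) and Klf2 (-1.06) were at least 2-fold lower, and the repressor gene Bcl6 was higher (1.15), at 8.04 in DKO and 6.90 in Fancd2KO. Other FOXO family transcripts were close, with Foxo1 at 7.24 in DKO and 7.68 in Fancd2KO.

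The FOXO element GTAAACA, on either strand, was present in the promoters of 4 of 34 listed targets (11.8%), against 4.05% of all genes in the table and 3.09% of measurable genes. It was present for 2 of 117 genes at least 2-fold lower (1.71%) and 5 of 128 at least 2-fold higher (3.91%). The 4 targets with the element did not share a direction: Bcl2l11, a gene of the apoptosis inducer Bim, differed by -0.58, Sesn1 by -0.28, Txnip by 0.43 and Trim63 by 0.58. Sesn1 encodes a stress-induced inhibitor of mTORC1, and Txnip an inhibitor of thioredoxin. Their promoters, Sesn1 on chromosome 10, plus strand, chr10:41810324-41810623, and Txnip on chromosome 3, plus strand, chr3:96557707-96558006, are shown with the element in capitals, as the measurable targets on opposite sides of 0.
Sesn1: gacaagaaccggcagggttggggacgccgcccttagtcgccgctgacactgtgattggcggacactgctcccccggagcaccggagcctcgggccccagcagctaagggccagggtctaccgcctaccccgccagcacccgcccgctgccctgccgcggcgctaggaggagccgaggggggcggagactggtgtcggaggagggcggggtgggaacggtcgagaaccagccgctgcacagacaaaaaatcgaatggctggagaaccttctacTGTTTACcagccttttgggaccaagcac
Txnip: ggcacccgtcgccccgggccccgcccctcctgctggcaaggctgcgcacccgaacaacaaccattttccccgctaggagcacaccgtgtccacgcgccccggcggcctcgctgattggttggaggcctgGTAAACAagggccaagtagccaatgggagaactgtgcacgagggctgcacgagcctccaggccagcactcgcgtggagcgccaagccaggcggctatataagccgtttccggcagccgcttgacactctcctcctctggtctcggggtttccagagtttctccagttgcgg
Sesn1 had a level of 8.25 in DKO and 8.53 in Fancd2KO, and Txnip one of 10.57 in DKO and 10.14 in Fancd2KO. Both differences were under the disagreement between probe sets.

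Of the processes that Foxo3a is known for, antioxidant defence and autophagy held no gene past the 2-fold threshold. Lists of this size would hold few at the 3.01% share of all measurable genes. The list of quiescence and CDK inhibitors held 4, of which only Cdkn1a encodes a CDK inhibitor. Of 25 measurable antioxidant genes, 12 were higher and 13 lower, and 0 were 2-fold apart at the threshold, with a median of -0.03. The haem-degrading enzyme gene Hmox1 was the furthest, just under the threshold, at 8.87 in DKO and 7.87 in Fancd2KO, while catalase, Cat, differed by -0.42. Of 36 autophagy genes 25 were lower and 0 were 2-fold apart, with a median of -0.11, led by Gabarapl2 (-0.79), Map1lc3b (-0.53) and Wipi2 (-0.51). Of 39 PI3K, AKT and mTOR genes, Irs2 was the one at least 2-fold apart, and the median was -0.07. Among 23 genes of quiescence and CDK inhibitors, Cdkn1a, Egr1, Hes1 and Tek were at least 2-fold lower (17.4%, against 1.51% of all measurable genes) and 0 were 2-fold higher. Of 22 p53 targets, Cdkn1a, the death receptor gene Tnfrsf10b (-1.55) and the kinase gene Plk2 (-1.18) were at least 2-fold lower (13.6%), while Phlda3 (0.94), Perp (0.85) and Aen (0.69) were on the other side, and the median was -0.14.

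Proliferation and repair lists held 0 genes 2-fold apart, where 3.01% of all measurable genes were; lists of this size would hold few at that share. DNA replication genes had a median of -0.09, with 33 of 44 lower, led by the primase gene Prim1 (-0.64) and Rfc3 (-0.63). Mitosis genes had a median of 0.06, with 26 of 43 higher. Fanconi anaemia and recombination genes were balanced, with 17 of 37 higher and 20 lower, and Rad18 (-0.67), a ligase gene of damage tolerance, was the furthest. Respiratory chain genes were lower in 43 of 53 cases with a median of -0.10, and ribosomal protein genes in 40 of 52 with a median of -0.08. Heat shock and chaperone genes had a median of -0.19 with 18 of 24 lower, led by Hspa4 (-0.83), and cholesterol synthesis genes one of -0.04. Of the telomerase and shelterin list, Pot1b (1.02) was the member at least 2-fold apart, and the median was -0.15.

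In the TGF-beta, Notch and WNT, hypoxia and integrated stress response lists, the members 2-fold apart were all lower in DKO. Of 25 TGF-beta and Id genes, the feedback genes Skil (-1.38) and Smad7 (-1.28) were at least 2-fold lower (8% of the list, against 1.51% of all measurable genes); Smad7 stood at 7.69 in DKO and 8.97 in Fancd2KO, with 7.98 in Foxo3aKO and 7.61 in WT. Of 27 Notch and WNT genes, Hes1 and the WNT effector gene Lef1 (-1.06, or -0.82 with dim values raised) were at least 2-fold lower (7.41%). The receptor gene Fzd4 (-0.98) and the Notch-induced Nrarp (-0.83) followed, while the glycosyltransferase gene Lfng (0.92) was on the other side. Of 30 glycolysis and hypoxia genes, Vegfa, which encodes the vascular growth factor, was at least 2-fold lower, at 7.17 in DKO and 8.83 in Fancd2KO, with 7.61 in Foxo3aKO and 7.13 in WT. Of the integrated stress response and unfolded protein genes, 22 of 32 were lower, and Ppp1r15a (-1.17), Vldlr and Atf3 were at least 2-fold lower (9.38%). Several of these genes are counted on other lists as well. Ppp1r15a and Atf3 are on the immediate early list, Vldlr on the lipid uptake list, and Hes1 on the quiescence and non-classical monocyte lists.

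Stem cell identity genes differed little. Of 53 measurable members 32 were lower and 21 higher, with a median of -0.08. Tek and the chaperone gene Clu (-1.02) were at least 2-fold lower (3.77%, against 1.51% of all measurable genes). Tek, which anchors stem cells in the niche, stood at 5.74 in DKO and 6.81 in Fancd2KO, with 6.44 in Foxo3aKO and 6.99 in WT. The transcription factor genes Tcf15 (-0.95) and Mycn (0.89) went opposite ways. Slamf1, which encodes the stem cell antigen CD150, stood at 7.81 in DKO and 8.36 in Fancd2KO, and Cd48, an antigen gained on leaving the stem cell stage, at 8.68 in DKO and 7.5 in Fancd2KO. Cd48 is also expressed by monocytes.

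B lymphoid genes had lower levels in DKO than in Fancd2KO. Of 18 measured B cell genes 15 were lower, 3 of them at least 2-fold (16.7%, against 1.03% of all 22180 genes). The median was -0.55, or -0.29 with dim values raised to the filter level. Dntt, the enzyme gene that adds bases to antigen receptor joins, had a level of 5.62 in DKO and 7.44 in Fancd2KO, with 6.57 in Foxo3aKO and 8.74 in WT. DKO was the lowest of the arrays and WT the highest. The surrogate light chain gene Igll1 stood at 4.87 in DKO and 6.85 in Fancd2KO, with 5.66 in Foxo3aKO and 5.94 in WT. The adaptor gene Blnk (-1.40) and the B cell factor gene Ebf1 (-1.13, or -0.99 with dim values raised) were lower as well. On the multipotent progenitor and lymphoid priming list, these 4 of 29 were at least 2-fold lower (13.8%, against 1.51% of measurable genes). Cd48 was the member 2-fold higher, and Flt3 differed by -0.67. T and NK cell genes had a median of 0.00 over 19 genes; Gzma (-1.55) was under the filter level on both arrays, and Cd3e (-1.07) differed by -0.31 with dim values raised.

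Of the remaining blood lineages, erythroid genes were higher in 11 of 14 cases, with a median of 0.39. The carbonic anhydrase gene Car1 had a level of 9.48 in DKO and 7.45 in Fancd2KO, with 7.39 in Foxo3aKO and 8.87 in WT. The Rhesus-associated gene Rhag stood at 7.56 in DKO and 5.89 in Fancd2KO, with 5.65 in Foxo3aKO and 6.36 in WT. DKO and WT were the higher arrays for both. Haem synthesis and globin genes had a median of 0.12, with 7 of 11 higher and 0 at least 2-fold apart. Neutrophil genes were bright, with a median level of 10.37 in DKO and 10.54 in Fancd2KO, and 0 of 24 were 2-fold apart (median -0.10). Platelet and megakaryocyte genes had a median of -0.23, or -0.05 with dim values raised, with Selp the member 2-fold apart. Among 18 mast cell and basophil genes the basophil protease gene Mcpt8 (-1.03) was 2-fold apart, and among 13 eosinophil genes Prg3 (-1.49) and Adgre1 were. Dendritic cell genes had a median of -0.01, with the integrin gene Itgax (2.48, or 1.60 with dim values raised), also on the non-classical monocyte list, and H2-Eb1 2-fold higher; Klk1 (-1.35) was under the filter level on both arrays. Endothelial and stromal genes were dim, with a median level of 5.18 in DKO and 5.53 in Fancd2KO; Sparc (-1.21) and Tek were at least 2-fold lower, and the list median of -0.14 was 0.00 with dim values raised.

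Transcripts best known from neurons were lower in DKO. Of 26 measured genes of the neuronal list 25 were lower, with Nrgn (0.65), also a platelet gene, the exception. At least 2-fold lower were 11 (42.3%, against 1.03% of all 22180 genes). The list was chosen with earlier results of these data known, so this share is a description and no test of the list. The median was -0.72, or -0.35 with dim values raised to the filter level. Pcp4, a calmodulin regulator gene, had a level of 5.78 in DKO and 8.67 in Fancd2KO, with 8.09 in Foxo3aKO and 4.95 in WT. The synaptic fusion gene Snap25 stood at 3.96 in DKO and 7.43 in Fancd2KO, with 6.11 in Foxo3aKO and 3.97 in WT. Cdr1 stood at 3.0 in DKO and 7.69 in Fancd2KO, with 6.69 in Foxo3aKO and 3.0 in WT. These genes were higher on both single-knockout arrays than in DKO and WT; Snap25 and Cdr1 were under the filter level in DKO and WT, and Pcp4 was under it in WT alone. The prohormone-processing gene Cpe (-3.53), Sparcl1 (-3.05), the growth cone gene Gap43 (-2.09), the hormone gene Sst (-1.76) and the sodium pump subunit gene Atp1b1 (-1.78) were lower too. Raised to the filter level, Cdr1 differed by -2.18, Snap25 by -1.92, Cpe by -1.78, Sparcl1 by -1.77 and Gap43 by -1.16. The source of these transcripts in sorted marrow cells was not tested.

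The maternally expressed RNAs Meg3 and Rian, which come from 1 imprinted cluster, were lower together. Meg3 had a level of 4.26 in DKO and 7.06 in Fancd2KO, with 5.46 in Foxo3aKO and 5.64 in WT. Rian stood at 3.97 in DKO and 6.48 in Fancd2KO, with 5.13 in Foxo3aKO and 5.03 in WT. Fancd2KO was the highest and DKO the lowest array for both. The paternally expressed Peg3 differed by -2.12. Of the imprinted list, 15 measurable genes with a median of -0.12, these 3 were the members 2-fold apart (20%, against 3.01% of measurable genes). With dim values raised to the filter level Meg3 differed by -1.56, Rian by -0.97 and Peg3 by -0.56. Further lower genes were Bex2 (-1.99), the nucleosome-binding Hmgn5 (-1.80), Ctla2b (-1.73), Rab4a (-1.58) of endosome recycling and Rsph3a (-2.03), which differed by -0.96 with the mean of its probe sets.

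MicroRNA genes, read through their own probe sets, lay on both sides. Of 483 measured microRNA genes 136 were measurable, of which 12 were at least 2-fold higher (8.82%, against 1.5% of all measurable genes) and 10 at least 2-fold lower (7.35%, against 1.51%). Their median difference was 0.11. Pairs of genes from shared clusters are shown, chosen after their values were seen, because each pair went the same way. Mir15a (1.13) stood at 8.14 in DKO and 7.01 in Fancd2KO, and its cluster partner Mir16-1 (1.37) at 5.90 in DKO and 4.53 in Fancd2KO. Mir16-1 was thus under the filter level of 5.51 in Fancd2KO and little above it in DKO, so the size of its difference is uncertain. Mir23a (-1.31) stood at 6.30 in DKO and 7.61 in Fancd2KO, with 7.66 in Foxo3aKO and 6.17 in WT, and its partner Mir27a (-1.39) at 5.98 in DKO and 7.37 in Fancd2KO, with 7.20 in Foxo3aKO and 6.47 in WT. The array does not tell a mature microRNA from its precursor. The mature sequences from RefSeq (GRCm38.p6) follow with the seed, bases 2 to 8, in capitals; the first 2 share a seed.
mmu-miR-15a-5p: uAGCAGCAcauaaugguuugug
mmu-miR-16-5p: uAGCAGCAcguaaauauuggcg
mmu-miR-23a-3p: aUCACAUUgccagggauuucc
mmu-miR-27a-3p: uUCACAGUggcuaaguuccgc

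**Figure D4:**
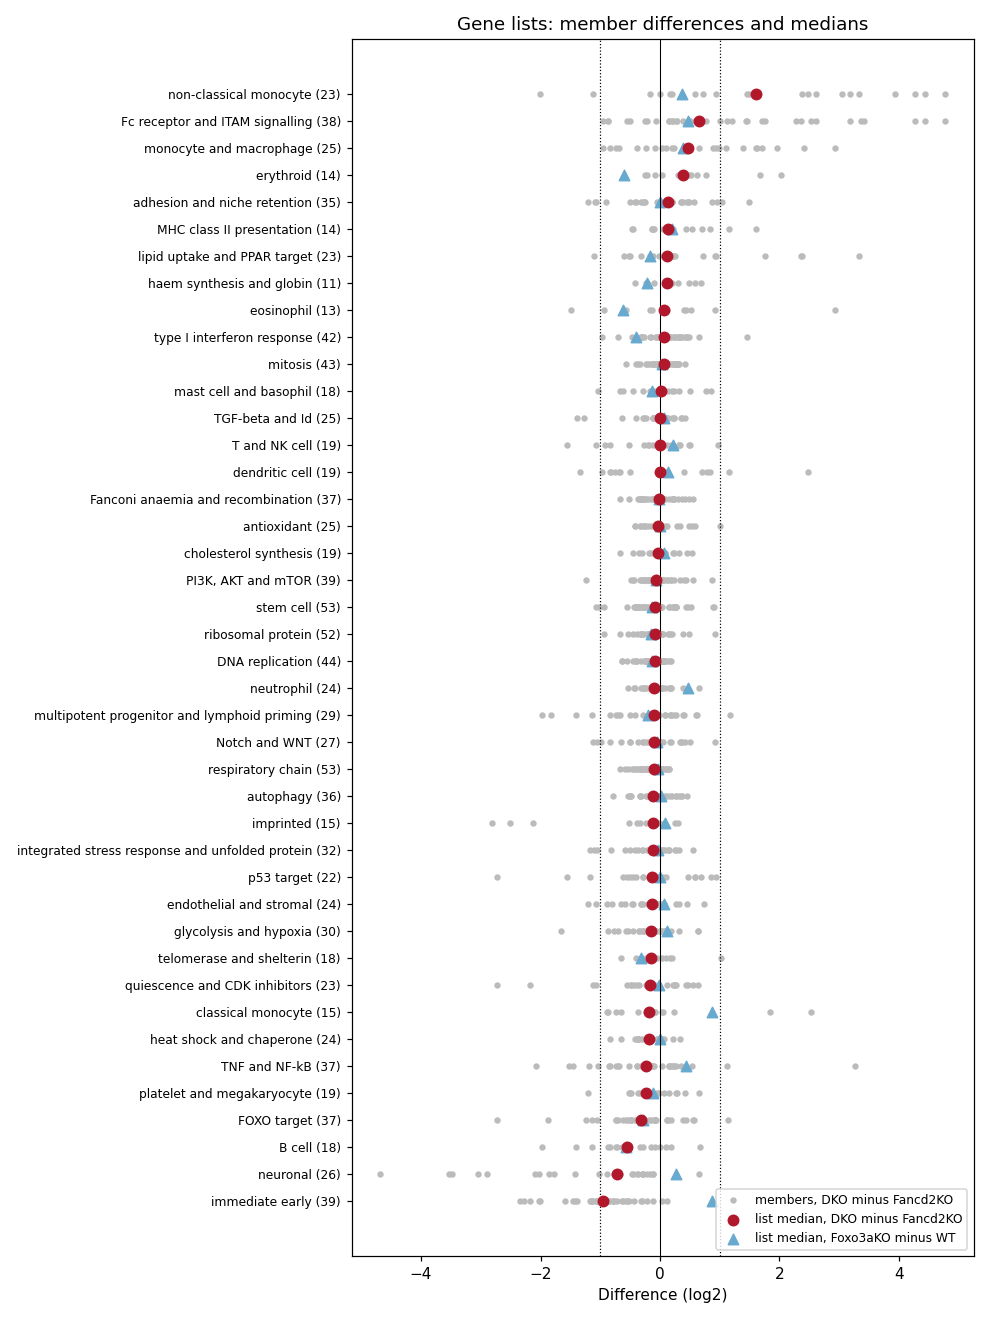
DKO minus Fancd2KO differences (log2, horizontal axis) of the members of each list (grey), their median (red circle) and the median of Foxo3aKO minus WT (blue triangle), with the number of genes in brackets and the 2-fold limits dotted. Non-classical monocyte genes have the highest red median (1.61) and immediate early genes the lowest (-0.95).

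Foxo3a loss on the intact Fancd2 background, Foxo3aKO minus WT, shares no array with the comparison above and can be set beside it. There, 218 of 12041 measurable genes were at least 2-fold higher (1.81%) and 156 at least 2-fold lower (1.3%), together 3.11%. Over all 22180 genes the shares were 1.27% higher, 0.902% lower and 2.17% in all. Differences were above 0 for 44.6% of measurable genes and 48.9% of all genes. Across the 12041 measurable genes the differences on both backgrounds had a Pearson correlation of -0.06 and a Spearman correlation of -0.01, given as a description, since genes are not independent and the probe set and filter came from all 4 arrays. Of the 182 genes at least 2-fold lower in DKO than in Fancd2KO, 42 were at least 2-fold higher in Foxo3aKO than in WT (23.1% of the first list, 19.3% of the second). A further 6 were at least 2-fold lower on both backgrounds (3.30% and 3.85%), where 1.3% of all measurable genes were 2-fold lower in Foxo3aKO. Of the 181 genes at least 2-fold higher in DKO, 19 were also higher in Foxo3aKO than in WT (10.5% and 8.72%), and 11 were lower there (6.08% and 7.05%).

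The lists can be set side by side in the same way, with the median of DKO minus Fancd2KO given before that of Foxo3aKO minus WT. Immediate early genes went opposite ways, with a median of -0.95 for DKO minus Fancd2KO and 0.87 for Foxo3aKO minus WT, where 37 of 39 were higher and 14 at least 2-fold so. Neuronal genes had medians of -0.72 and 0.28, TNF and NF-kB genes -0.23 and 0.44, and erythroid genes 0.39 and -0.60. FOXO targets had medians of -0.32 and -0.29, with 28 and 26 of 37 genes lower. Their leading members did not follow the medians: 5 were at least 2-fold lower and 1 higher in DKO than in Fancd2KO, while 0 were 2-fold lower and Klf6 and Klf2 were 2-fold higher in Foxo3aKO than in WT. Cdkn1a differed by -2.74 and 0.93, S1pr1 by -1.87 and 0.26, Klf6 by -1.14 and 1.20 and Klf2 by -1.06 and 1.07. B cell medians had the same sign on both, with medians of -0.55 and -0.56, as did Fc receptor and ITAM genes (0.65 and 0.48) and monocyte and macrophage genes (0.46 and 0.38). Non-classical monocyte genes had medians of 1.61 and 0.36, with 14 and 2 of 23 at least 2-fold higher, whereas classical monocyte genes had medians of -0.18 and 0.87, with 15 of 15 higher in Foxo3aKO than in WT. Neutrophil genes had medians of -0.10 and 0.48, and type I interferon genes 0.07 and -0.40. Whether the differences between backgrounds exceed the spread between samples could not be tested with 1 array per genotype.

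**Figure D5:**
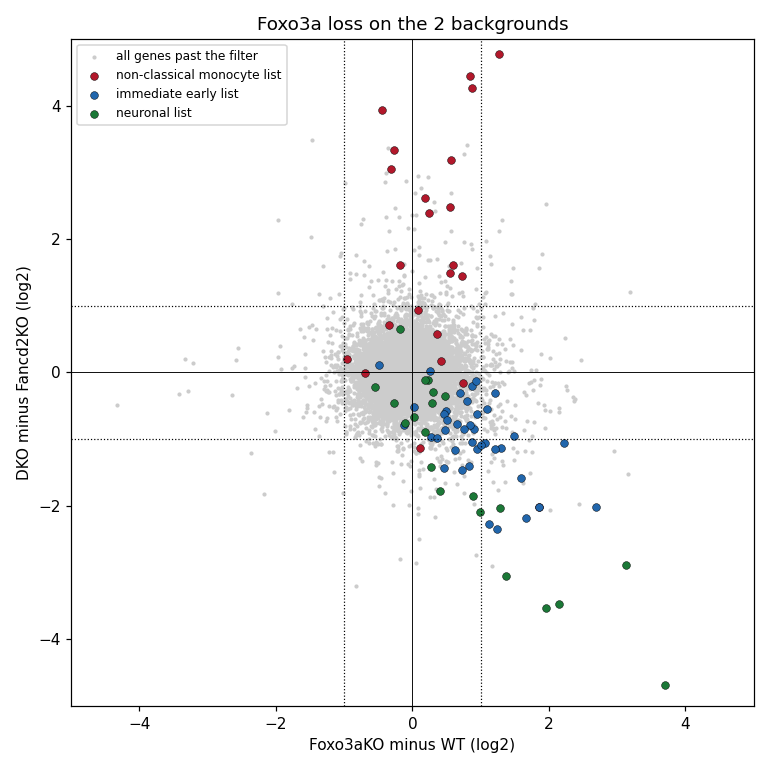
DKO minus Fancd2KO (log2, vertical axis) against Foxo3aKO minus WT (log2, horizontal axis) for 12041 measurable genes, with 3 lists coloured and the 2-fold limits dotted. Immediate early genes (blue) lie mostly to the lower right, with medians of -0.95 (DKO minus Fancd2KO) and 0.87 (Foxo3aKO minus WT), and non-classical monocyte genes (red) mostly in the upper part, with medians of 1.61 and 0.36 in that order.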

How the data were processed

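Each of 4 samples, 1 per genotype, was hybridised to an Affymetrix Mouse Gene 2.0 ST array. The scale of the deposited values was inferred from the values themselves to be log2. For their processing the submitters' notes name Affymetrix Expression Console. Its version, how probes were summarised and how arrays were normalised are not given in the sources used here. All 4 columns of the table were used, as deposited. Of 41345 probe sets, 23521 had 1 gene symbol in the platform annotation, 1814 had several and 16010 had no listed gene; 23328 of those with 1 symbol had their Entrez identifier in RefSeq GRCm38.p6. The brightest probe set by the mean of the 4 arrays stood for its gene. Genes entered pathway lists and counts when their highest value reached the filter level of 5.51 log2; marker lists held every measured gene. Levels were subtracted, DKO minus Fancd2KO, and a log2 difference of 1 in size was counted as 2-fold. No test was run, since no genotype has a replicate, and the number of arrays limits the precision.

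Named genes were Foxo3, Fancd2, the 20 furthest in each direction at or above the filter level on both arrays, the 10 furthest in each direction with 1 array under it, and up to 6 members of each of 29 pathway and 13 marker lists and of a list of sort and sex genes. Other listed genes, sort and sex genes, promoter examples and microRNAs were named after their values were seen. The members and lists were chosen with earlier results of these data known. The counting code was run on simulated data with planted changes far above its noise, which does not show how reliable the counts are. Alternatives were quantile normalisation and cyclic loess (limma 3.58.1 in R 4.3.3), median centring, other filters, raising dim values, the mean of probe sets and other fold thresholds. Differences were computed with pandas 2.3.3.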

Additional observations from a re-analysis of the deposited data

Results flagged for a closer look

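Foxo3a loss went opposite ways on both backgrounds for the results below. In each case the value for DKO minus Fancd2KO is given first and that for Foxo3aKO minus WT after it, both as log2 differences of single arrays, and the difference between backgrounds was not tested. List medians were chosen at 0.3 or more in size on both sides and single genes at 1 or more. The median of immediate early genes was -0.95 and 0.87, and that of erythroid genes 0.39 and -0.60. Over all measurable genes, 11 were at least 2-fold higher in DKO than in Fancd2KO and at least 2-fold lower in Foxo3aKO than in WT, and 42 were the reverse; values follow for those named in the text. Of the first kind these were Car1 (2.03 and -1.48) and Fabp4 (1.75 and -1.06).

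The named genes of the second kind were lower in DKO than in Fancd2KO and higher in Foxo3aKO than in WT. Among immediate early genes these were Nr4a1 (-2.02 and 1.85), Nr4a2 (-2.02 and 2.69), Nr4a3 (-2.28 and 1.13), Egr1 (-2.18 and 1.67), Fosb (-1.58 and 1.59), Fos (-1.14 and 1.30), Atf3 (-1.05 and 2.22), Klf2 (-1.06 and 1.07), Klf6 (-1.14 and 1.20) and Socs3 (-2.35 and 1.25). Activation and inflammation genes were Ptgs2 (-2.07 and 2.01), Tiparp (-1.66 and 1.63), Il1r2 (-1.53 and 3.16), Ccl2 (-1.18 and 2.96), Cd69 (-1.64 and 1.18) and Cd28 (-1.29 and 1.19). Neural and hormone transcripts were Cdr1 (-4.69 and 3.70), Cpe (-3.53 and 1.96), Snap25 (-3.47 and 2.14), Sparcl1 (-3.05 and 1.38), Pcp4 (-2.89 and 3.14) and Sst (-1.76 and 1.26). The remaining ones were the p53 target Plk2 (-1.18 and 1.65), the TGF-beta feedback gene Skil (-1.38 and 1.32) and Mir23a (-1.31 and 1.49).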

How the results depend on the processing

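Counts, list medians and the correlation between backgrounds were recomputed under quantile normalisation, median centring, cyclic loess, no filter, a filter on the DKO and Fancd2KO arrays, dim values raised to the filter level and the mean of all probe sets. No list median of 0.1 or more in size and no named gene 2-fold apart turned its sign under these, but with dim values raised the endothelial and stromal median, Klk1 and Gzma became 0. Filters could not change marker list medians, which held every measured gene, or the difference of a single gene. The mean of probe sets could change only genes with several. Over measurable members alone, medians were -0.50 for dendritic cell, -0.23 for mast cell and basophil, -0.19 for T and NK cell and 0.78 for monocyte and macrophage genes. The counts of 181 higher and 182 lower genes became 642 and 735 at 1.5-fold, and 69 and 46 at 3-fold. Across the other alternatives they ran from 129 to 230 and from 135 to 228, and with quantile normalisation 171 and 172 genes were shared with the counts as reported. Raising dim values moved the medians of monocyte and macrophage genes to 0.24, B cell genes to -0.29 and neuronal genes to -0.35. Single genes moved by more than the probe-set disagreement of 0.51 in 25 cases, 22 of them by raising dim values. No paired analysis was possible because each genotype has 1 array.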
